A study of Mus musculus with 25 samples.

Results

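The genes of the heme biosynthesis enzymes *Alas1*, *Alas2*, *Alad*, *Uros*, *Urod*, *Cpox*, *Ppox* and *Fech* were examined by RNA-seq in mouse hematopoietic stem cells with and without *Znf143*. They were chosen by name, and all 8 were found among the 23116 genes of the expression table. The cells were the HSLAM population (LSK+ CD150+ CD48-), sorted from bone marrow of adult male C57BL/6 littermates, with 3 libraries per genotype. Before the sort, mature blood cells were depleted with antibodies to lineage markers, which include myeloid and erythroid ones. Control mice were *Znf143 f/f* x *Rosa26ERT2-Cre-* and are called *Znf143 f/f*. Deleted mice were *Znf143 f/f* x *Rosa26ERT2-Cre+* and are called *Znf143 -/-*. Both genotypes carried the floxed allele, with loxP sites around exon 1, and both were given tamoxifen at the middle dosage over 10 days. The *Rosa26ERT2-Cre* is inducible and active in all tissues, so *Znf143* was not deleted in blood cells alone. In the sample labels the deleted genotype is named a CTCF knockout, and the genotypes used here follow the study's methods.

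Heme is the iron-containing ring that carries oxygen in hemoglobin and electrons in cytochromes, and that serves as a cofactor of catalase. Its synthesis begins in the mitochondrion, where 5-aminolevulinate synthase joins glycine and succinyl-CoA. It goes on in the cytosol, where 5-aminolevulinate is built into a porphyrin ring, and it ends in the mitochondrion, where the ring is oxidized and iron is inserted. *Alas1* codes the form of the first enzyme found in most cells and is held down by heme itself. *Alas2* codes the erythroid form and is induced as red cells mature. ZNF143 is a zinc finger protein that binds promoters.

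Fragments assigned to genes ranged from 38643255 to 57895793 per library. Levels are given as scaled FPKM, which are fragments per kilobase of gene, scaled to library depth, divided by a size factor for each library (0.906 to 1.20). *Zfp143*, the gene of ZNF143, was at 3.74 ± 0.683 scaled FPKM (SD, n = 3) in *Znf143 f/f* and at 0.242 ± 0.0760 in *Znf143 -/-*, 6.48% of the control level. Of the 8 HSLAM markers, all were detected, 1 was higher in *Znf143 -/-* (*Ly6a*, log2 difference 1.13) and 1 was lower (*Mecom*, -0.55). Myeloid, lymphoid and megakaryocyte markers were present as well, and *Lyz2* and *Pf4* were at 556 and 443 scaled FPKM in the control libraries. Among 7 myeloid markers, *Elane* (3.95, adjusted p = 0.0283, limma) and *S100a8* (1.40, adjusted p = 0.0414) were higher in *Znf143 -/-*. Of the 3 lymphoid markers tested, *Nkg7* was higher (0.85). None of the 5 megakaryocyte markers passed the test, and their differences were 0.20 to 0.82. The second *Znf143 f/f* library stood apart in erythroid genes. It was the highest control library for 11 of the 13 erythroid markers in the table, and their summed level was 234 scaled FPKM there against 61.7 and 72.2 in the other controls. No row of the table has the symbol *Ahsp*.

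The amount of *Cpox* RNA fell to 50.8% of the control level in *Znf143 -/-* HSLAM cells, and it was the only heme synthesis gene of the 8 that passed the test. *Alas1* was at 74.2% of the control level without overlap between genotypes, and missed the threshold. *Alad*, *Uros*, *Urod*, *Ppox* and *Fech* were at 87.6% to 107% of the control level with overlapping libraries. *Alas2* was low in both genotypes, with 12 to 67 fragments per library.

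All 8 genes passed the filter on low values (a mean FPKM of at least 0.1) and were tested with limma on log2(scaled FPKM + 0.1), with p-values adjusted by the Benjamini-Hochberg method over 19293 genes. On this scale, a difference is *Znf143 -/-* minus *Znf143 f/f*, and that of a low gene is understated. Of the 8 genes, 1 was called lower, 0 were called higher and 7 were not called at an adjusted p under 0.05. Over all genes tested, 5.98% were called (1154), 3% higher (578) and 2.99% lower (576). For 2 of the 8 genes, both lower, no *Znf143 -/-* library lay within the range of the controls. This was so for 30.7% of all genes tested, and 15.3% were lower in this way. The log2 difference was below 0 for 7 of the 8 genes. Their median was -0.14, beside 0.0065 over all genes tested. With so few members, these counts describe the genes and say nothing about the pathway against other genes.

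**Figure D1:**
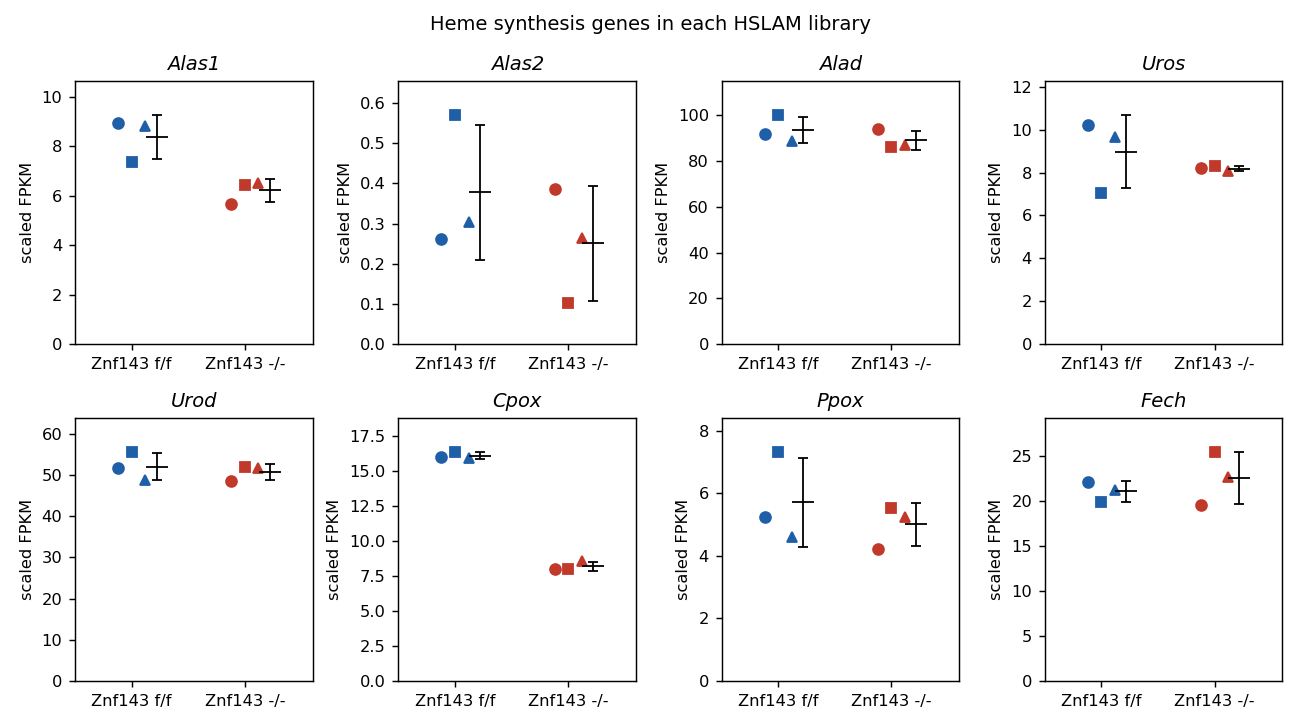
Level of each heme synthesis gene in scaled FPKM (linear axis from 0) in each library, blue for Znf143 f/f and red for Znf143 -/-. The circle, square and triangle are libraries 1, 2 and 3, and the bar is the mean with its SD (n = 3). The Cpox libraries lie near 16 in Znf143 f/f and near 8 in Znf143 -/-, the Alas1 libraries do not overlap, and those of the other 6 genes do.

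5-aminolevulinate synthase is the rate-limiting enzyme of the pathway, and both of its genes were in the table. *Alas1* (ENSMUSG00000032786.16) lies on the minus strand at chr9:106233455-106248654 of GRCm38. It was at 8.93, 7.37 and 8.82 scaled FPKM in the *Znf143 f/f* libraries and at 5.67, 6.45 and 6.52 in the *Znf143 -/-* libraries. Every *Znf143 -/-* library was below every control. The means were 8.37 ± 0.873 and 6.22 ± 0.472 (SD, n = 3). The log2 difference was -0.42 (SE 0.116, 95% confidence interval -0.70 to -0.14), with an adjusted p of 0.0857 by limma. An exact two-sided permutation test of these levels gave p = 0.1, the smallest that 3 against 3 libraries allow. *Alas1* passed the threshold in 1 of 15 alternative settings, without the second *Znf143 f/f* library (-0.51, adjusted p = 0.0330). Its difference was below 0 in all 15, from -0.51 to -0.31.

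*Alas2* (ENSMUSG00000025270.13) lies on the plus strand at chrX:150547375-150570638. Its levels were 0.261, 0.569 and 0.303 scaled FPKM in *Znf143 f/f* and 0.387, 0.102 and 0.265 in *Znf143 -/-*. These rest on 24, 67 and 32 fragments and on 41, 12 and 37 fragments. The second *Znf143 f/f* library was the highest and the second *Znf143 -/-* library the lowest, and the other 4 overlapped. On the log2 scale the difference was -0.48 (SE 0.415, 95% confidence interval -1.47 to 0.51), with an adjusted p of 0.535 by limma. The libraries of a genotype varied by 44.2% (*Znf143 f/f*) and 56.8% (*Znf143 -/-*) of the mean, and the counting error of their fragments is 12.2% to 28.9%. The high library is the one with the high erythroid markers. Of 14 erythroid markers listed, 10 were tested, 1 was higher in *Znf143 -/-* (*Rhag*, 1.59, adjusted p = 0.0110) and 1 was lower (*Hbb-bt*, -1.38, adjusted p = 0.0273). Of these 10, 7 had a log2 difference below 0 and 3 above, with a median of -0.69. For 6 of them the genotypes did not overlap, as for 30.7% of all genes tested. The summed level of the 13 markers in the table ranged from 61.7 to 234 scaled FPKM in *Znf143 f/f* and from 62.2 to 64.6 in *Znf143 -/-*. Most of the high sum was *Car1*, the most abundant of these markers, at 15.1, 142 and 21.9 in *Znf143 f/f* and at 6.92, 9.45 and 8.83 in *Znf143 -/-*. Without *Car1* the sum was 46.6, 91.5 and 50.2 in *Znf143 f/f* and 54.0 to 55.8 in *Znf143 -/-*. *Hbb-bs*, a globin gene, was at 16.9, 48.5 and 20.6 in the control libraries, and *Trim10* had 0 fragments in 3 libraries. The part of these markers in the *Alas2* levels was not tested. Fewer erythroid cells and less RNA per cell cannot be told apart in bulk RNA.

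The erythroid form was a small part of synthase RNA in every library. The level of *Alas2* was 2.92%, 7.72% and 3.43% of that of *Alas1* in *Znf143 f/f* and 6.81%, 1.58% and 4.06% in *Znf143 -/-*. The ranges overlapped, and the log2 difference of the ratio was -0.27 (SE 0.754, exact two-sided permutation p = 0.9, n = 3). Its sign turned without the second *Znf143 f/f* library (0.15) or without the second *Znf143 -/-* library (0.30).

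*Alad*, *Uros* and *Urod* code cytosolic enzymes of the pathway, and *Alad* and *Urod* were the most abundant of the 8 genes. *Alad* (chr4:62509169-62519918, minus strand) codes the enzyme that joins 5-aminolevulinate molecules into porphobilinogen. It was at 92.0, 100.05 and 88.8 scaled FPKM in *Znf143 f/f* and at 94.0, 86.4 and 86.9 in *Znf143 -/-*. Its log2 difference was -0.07 (SE 0.0859, 95% confidence interval -0.28 to 0.13). *Uros* (chr7:133686243-133710072, minus strand) codes the synthase that closes the ring. Its levels were 10.2, 7.05 and 9.65 in *Znf143 f/f* and 8.19, 8.30 and 8.06 in *Znf143 -/-*. The second *Znf143 f/f* library was below all others, and the log2 difference was -0.11 (SE 0.149, 95% confidence interval -0.47 to 0.24). *Urod* (chr4:116989965-116994413, minus strand) codes the decarboxylase that makes coproporphyrinogen, the substrate of the *Cpox* product. Its levels were 51.7, 55.6 and 48.9 in *Znf143 f/f* and 48.5, 52.0 and 51.8 in *Znf143 -/-*. For *Urod* the log2 difference was -0.04 (SE 0.0831, 95% confidence interval -0.23 to 0.16). By limma, the adjusted p was 0.665 for *Alad*, 0.690 for *Uros* and 0.836 for *Urod*. The intervals of *Alad* and *Urod* hold no change as large as that of *Cpox*.

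*Cpox* codes coproporphyrinogen oxidase, which starts the mitochondrial end of the pathway. It was the member with the largest difference and the smallest spread in the controls relative to its mean (1.36%). The counting error of its fragments in these libraries, 1.98% to 2.26%, is larger than this spread. The gene (ENSMUSG00000022742.6) lies on the plus strand at chr16:58670292-58717636. It was at 16.0, 16.4 and 16.0 scaled FPKM in *Znf143 f/f* and at 8.03, 7.98 and 8.57 in *Znf143 -/-*. These rest on 1957, 2556 and 2234 fragments and on 1129, 1243 and 1587 fragments. All *Znf143 -/-* libraries lay below all controls. The means were 16.1 ± 0.219 and 8.19 ± 0.331 (SD, n = 3). The log2 difference was -0.97 (SE 0.0780, 95% confidence interval -1.15 to -0.78), with an adjusted p of 0.00182 by limma, lower in 3 of 3 libraries. *Cpox* ranked 77 by adjusted p among the genes tested, and 4.53% of them had a lower difference. It was called in all 15 alternative settings, with differences of -0.998 to -0.856 and adjusted p-values of 0.00129 to 0.0418 by limma. *Cpox* was the 1 member on the study's list of direct ZNF143 targets. The study made this list from ZNF143 location at promoters together with expression in these libraries, so it is not independent evidence of the direction of *Cpox*. Of the genes around the pathway named below, *Suclg1*, *Shmt2*, *Cyc1* and *Nr1d1* were on it too.

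**Figure D2:**
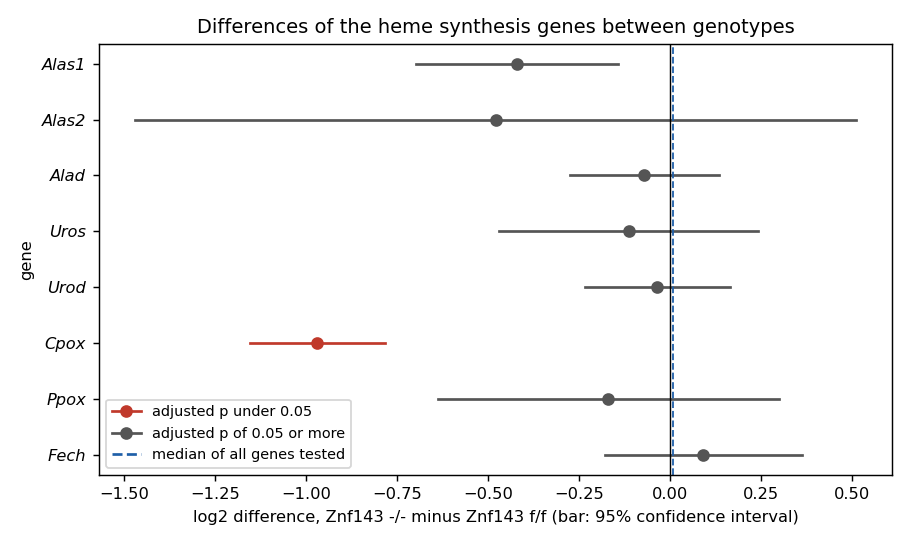
Difference between genotypes on the log2(scaled FPKM + 0.1) scale for each heme synthesis gene in pathway order, with bars for the 95% confidence interval and a dashed line at the median of all genes tested. The Cpox interval runs from -1.15 to -0.78, below 0, and so does that of Alas1 (-0.70 to -0.14), while those of the other 6 genes hold 0.

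The promoters of *Cpox* and *Alas2* are shown because they hold GATA sites, the motif of the erythroid factor GATA1. They are RefSeq windows of GRCm38.p6 on the plus strand, from 250 bases before to 10 after the start of the transcript, with the GATA letters in capitals. The window of *Cpox* is chr16:58669958-58670217 and that of *Alas2* is chrX:150547167-150547426.
Cpox: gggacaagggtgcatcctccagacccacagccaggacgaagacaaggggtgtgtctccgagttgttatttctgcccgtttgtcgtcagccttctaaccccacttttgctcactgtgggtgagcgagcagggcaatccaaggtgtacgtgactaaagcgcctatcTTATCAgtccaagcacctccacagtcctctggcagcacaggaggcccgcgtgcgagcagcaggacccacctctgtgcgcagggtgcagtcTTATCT
Alas2: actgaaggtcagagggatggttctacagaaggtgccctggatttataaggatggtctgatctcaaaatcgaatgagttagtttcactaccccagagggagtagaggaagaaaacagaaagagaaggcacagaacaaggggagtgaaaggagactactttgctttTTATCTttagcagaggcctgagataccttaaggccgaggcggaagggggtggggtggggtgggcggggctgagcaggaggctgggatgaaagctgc
The capitals mark AGATAA and TGATAA as they read on the minus strand. In *Cpox* they begin 86 bases before and 5 bases after the RefSeq start, and in *Alas2* 86 bases before it. The GENCODE gene starts given above differ from these starts. That of *Cpox* (58670292) lies beyond the end of its window, and that of *Alas2* (150547375) lies inside its window.

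Windows of 300 bases, 250 before to 50 after a start, were given for 7 of the 8 genes, 10 windows in all, with none for *Fech*. On either strand, AGATAA was in 2 of the 10 (*Cpox* and *Alas2*) and in 11.2% of all 32851 windows. TGATAA, which was searched after the sequences had been seen and shares its letters GATAA with the first motif, was in 2 of the 10 (*Uros* and *Cpox*) and in 9.05% of all. ACTACAA, the only stretch of the ZNF143 motif that was searched, was in 0 of the 10 and in 3.24% of all. The rest of that motif was not searched, so a ZNF143 site without these letters would be missed. These are matches of letters in a short window, and say nothing of binding.

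The last enzymes of the pathway are coded by *Ppox*, whose product oxidizes the ring to protoporphyrin, and *Fech*, whose product inserts iron. *Ppox* (chr1:171275990-171281186, minus strand) was at 5.23, 7.32 and 4.60 scaled FPKM in *Znf143 f/f* and at 4.23, 5.54 and 5.25 in *Znf143 -/-*. The second *Znf143 f/f* library was again the highest, and the others overlapped. *Fech* was at 22.1, 19.9 and 21.3 in *Znf143 f/f* and at 19.6, 25.4 and 22.6 in *Znf143 -/-*, and was the 1 member with a difference above 0. On the log2 scale the difference was -0.17 (SE 0.196, 95% confidence interval -0.64 to 0.30) for *Ppox* and 0.09 (SE 0.113, 95% confidence interval -0.18 to 0.36) for *Fech*. Their adjusted p-values were 0.650 and 0.673 by limma. Both intervals lie above the difference of *Cpox*.

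*Cpox* was lower also relative to the genes on both sides of it in the pathway, in ratios that no scaling between libraries can move. The level of *Cpox* was 0.311, 0.294 and 0.326 times that of *Urod* in *Znf143 f/f* and 0.166, 0.153 and 0.165 times in *Znf143 -/-*. It was 3.07, 2.24 and 3.47 times that of *Ppox* in *Znf143 f/f* and 1.90, 1.44 and 1.63 times in *Znf143 -/-*. The genotypes did not overlap in either ratio. The log2 differences were -0.94 (SE 0.0559) against *Urod* and -0.80 (SE 0.221) against *Ppox*, each with an exact two-sided permutation p of 0.1, the smallest that 3 against 3 allow.

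The order of levels was the same in both genotypes, from *Alad* over *Urod*, *Fech*, *Cpox*, *Uros*, *Alas1* and *Ppox* to *Alas2*. *Alad* was at 93.6 ± 5.78 (SD, n = 3) and *Ppox* at 5.72 ± 1.43 scaled FPKM in *Znf143 f/f*. In *Znf143 f/f*, only *Uros* and *Alas1* had overlapping ranges among neighbours in this order. In *Znf143 -/-*, only *Cpox* and *Uros* did, at means of 8.19 and 8.18. *Cpox* was above 81.4% of tested genes in *Znf143 f/f* and above 71.1% in *Znf143 -/-*. The summed level of the 8 genes was 198 to 214 in *Znf143 f/f* and 189 to 192 in *Znf143 -/-*.

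The order depends on gene length. The length used for FPKM equals the merged exon length of GENCODE M21 for 6 of the 8 genes. It is 3186 against 6661 bases for *Cpox* and 2901 against 13838 bases for *Fech*. The GENCODE lengths were also put in place of these, a choice made after the levels were seen, with the fragments left as they were. *Cpox* would then be at 7.71 in *Znf143 f/f* and at 3.92 in *Znf143 -/-*, and *Fech* at 4.42 and 4.73. With these values *Cpox* would follow *Alas1* in *Znf143 f/f* and *Fech* in *Znf143 -/-*. Fragments were not counted anew over the longer exons, so these are not the levels of a new count. With the same fragments, length does not touch differences between genotypes beyond the pseudocount. Exons of other genes share 17.5% of the GENCODE exon bases of *Ppox* (with *B4galt3*), 15.5% of *Alas2* (*Apex2* and *Mir3620*), 7.53% of *Alas1* (*4930500F10Rik*) and 3.06% of *Cpox* (*Gpr15*). For *Cpox* this is a share of the 6661 bases and not of the 3186 used for FPKM. As no use of strand in counting is stated, reads of such bases cannot be assigned to 1 gene with certainty.

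The genes that feed the first step were examined next. Of 9 genes for the substrates, the cofactor and the turnover of 5-aminolevulinate synthase, 0 were higher and 1 was lower. *Slc25a38*, the mitochondrial carrier that brings in glycine for heme synthesis, was at 11.9, 12.3 and 12.3 scaled FPKM in *Znf143 f/f* and at 8.87, 8.05 and 7.66 in *Znf143 -/-*. All *Znf143 -/-* libraries were below the controls. The means were 12.2 ± 0.264 and 8.19 ± 0.616 (SD, n = 3), and the log2 difference was -0.57 (SE 0.0897, adjusted p = 0.0185, limma). This call held in 9 of 15 alternative settings, and was lost with FPKM as deposited (adjusted p = 0.141) and without library 1 or 3 of *Znf143 f/f* or library 2 or 3 of *Znf143 -/-*. *Suclg1*, a subunit of succinyl-CoA synthetase, and *Shmt2*, which makes mitochondrial glycine, were the most abundant genes of the list. Their log2 differences were 0.21 (adjusted p = 0.151, limma) and 0.30 (adjusted p = 0.170). The median of the list was 0.11.

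None of the genes around the pathway for transport, iron and heme use passed the test. These were 13 genes of porphyrin, heme and mitochondrial iron transport (median log2 difference 0.04, range -0.34 to 0.75), 9 of iron uptake, storage and sensing (-0.04, range -0.19 to 0.27), 11 of iron-sulfur cluster assembly (0.06, range -0.13 to 0.36) and 7 of heme use (0.09, range -0.30 to 0.30). In the transport list, 4 genes did not overlap between genotypes, and in the iron list 2, where 30.7% of all genes tested did not. *Tmem14c*, a porphyrinogen transporter of the inner mitochondrial membrane, was at 254 ± 24.8 scaled FPKM in *Znf143 f/f* and at 313 ± 17.0 (SD, n = 3) in *Znf143 -/-* (adjusted p = 0.154, limma). *Slc48a1*, a heme transporter, was at 109 and 102. The ferritin genes *Fth1* and *Ftl1* were at 3211 and 1278 in *Znf143 f/f* and at 3117 and 1154 in *Znf143 -/-*. In the assembly list, *Hscb*, a co-chaperone, was at 124 and 151, and *Iscu*, the scaffold, at 84.7 and 85.7. No row of the table has the symbol *Fdx1l* or *Fdx2*. Of the heme proteins, *Cyc1* (cytochrome c1) was at 285 and 305, and *Cyba* (a subunit of cytochrome b558) at 264 and 214. *Cybb*, its partner, was below the filter on low values.

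Among 6 genes of heme breakdown and sensing, 1 was higher and 0 were lower. *Hmox1*, the inducible heme oxygenase, was at 0.597, 0.886 and 0.689 scaled FPKM in *Znf143 f/f* and at 2.28, 3.63 and 3.34 in *Znf143 -/-*. Every *Znf143 -/-* library was above every control. The means were 0.724 ± 0.148 and 3.08 ± 0.713 (SD, n = 3), which is 4.26-fold, and the log2 difference was 1.94 (SE 0.229, adjusted p = 0.00771, limma). The call was lost without the third *Znf143 -/-* library (adjusted p = 0.0526). *Hmox2*, the constitutive form, was at 65.8 ± 1.63 and 60.9 ± 1.26 (adjusted p = 0.387), and *Blvra*, a biliverdin reductase, at 27.9 and 29.4. *Hmox1* was 1.08% of the level of *Hmox2* in *Znf143 f/f* and 4.97% in *Znf143 -/-* (geometric means, exact two-sided permutation p = 0.1, n = 3, the smallest possible). *Bach1*, a heme-sensing repressor of *Hmox1*, was at 2.98 ± 0.170 and 2.12 ± 0.247 without overlap. Its log2 difference of -0.48 missed the threshold (adjusted p = 0.0844, limma). *Hmox1* is also expressed in macrophages and other myeloid cells. The list of 7 myeloid markers held none chosen for macrophages. Of the 7, 2 were higher in *Znf143 -/-*, where 3% of all genes tested were. For 5 of the 7 the genotypes did not overlap, as for 30.7% of all genes tested. Differences were above 0 for 6 of the 7 and below 0 for 1, *Lyz2*, the most abundant of them. *Lyz2* was at 556 scaled FPKM in *Znf143 f/f* and at 426 in *Znf143 -/-*, without overlap (log2 difference -0.38, adjusted p = 0.0729, limma). The summed level of the 7 markers was 772 to 832 in *Znf143 f/f* and 690 to 855 in *Znf143 -/-*. *Elane* was at 0.448 and 7.92 scaled FPKM, and no myeloid marker was at 0 in any library. The part of such cells in the level of *Hmox1* was not tested.

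Of 4 regulators of *Alas1*, 0 were higher and 1 was lower. *Nr1d1*, a circadian repressor that binds heme, was at 1.38, 1.45 and 1.32 scaled FPKM in *Znf143 f/f* and at 0.479, 0.784 and 0.694 in *Znf143 -/-*, without overlap. Its log2 difference was -1.002 (SE 0.206, adjusted p = 0.0416, limma). That call held in 6 of 15 alternative settings, and was lost with FPKM as deposited (adjusted p = 0.110), with each library's own fragment total, with no filter on low values and without any 1 of 5 libraries. *Nrf1* and *Foxo1* were at 5.39 and 2.07 in *Znf143 f/f* and at 5.15 and 2.36 in *Znf143 -/-*.

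Of 6 erythroid regulators, 1 was higher and 0 were lower, where 3% and 2.99% of all genes tested were. Their log2 differences were below 0 for 4 and above 0 for 2. For 4 of the 6 the genotypes did not overlap, as for 30.7% of all genes tested. *Tal1* (-0.33, adjusted p = 0.137, limma) and *Zfpm1* (-0.40, adjusted p = 0.0625) were lower without overlap and missed the threshold. *Gata1*, which drives heme synthesis genes during red cell maturation, was at 22.4, 21.2 and 21.2 scaled FPKM in *Znf143 f/f* and at 33.7, 37.6 and 36.4 in *Znf143 -/-*. All *Znf143 -/-* libraries were above the controls. The log2 difference was 0.73 (SE 0.0789, adjusted p = 0.00569, limma). Without the third *Znf143 -/-* library *Gata1* was not called. *Nfe2* was at 196 and 168, and *Ldb1* at 43.4 and 35.0, with adjusted p-values of 0.325 and 0.0628 by limma. GATA1 also acts in megakaryocytes. Of the 5 megakaryocyte markers, all had differences above 0, 4 did not overlap between genotypes (30.7% of all genes tested did not), and their summed level was 543 to 623 in *Znf143 f/f* and 675 to 1016 in *Znf143 -/-*. The part of these cells in the level of *Gata1* was not tested.

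**Figure D3:**
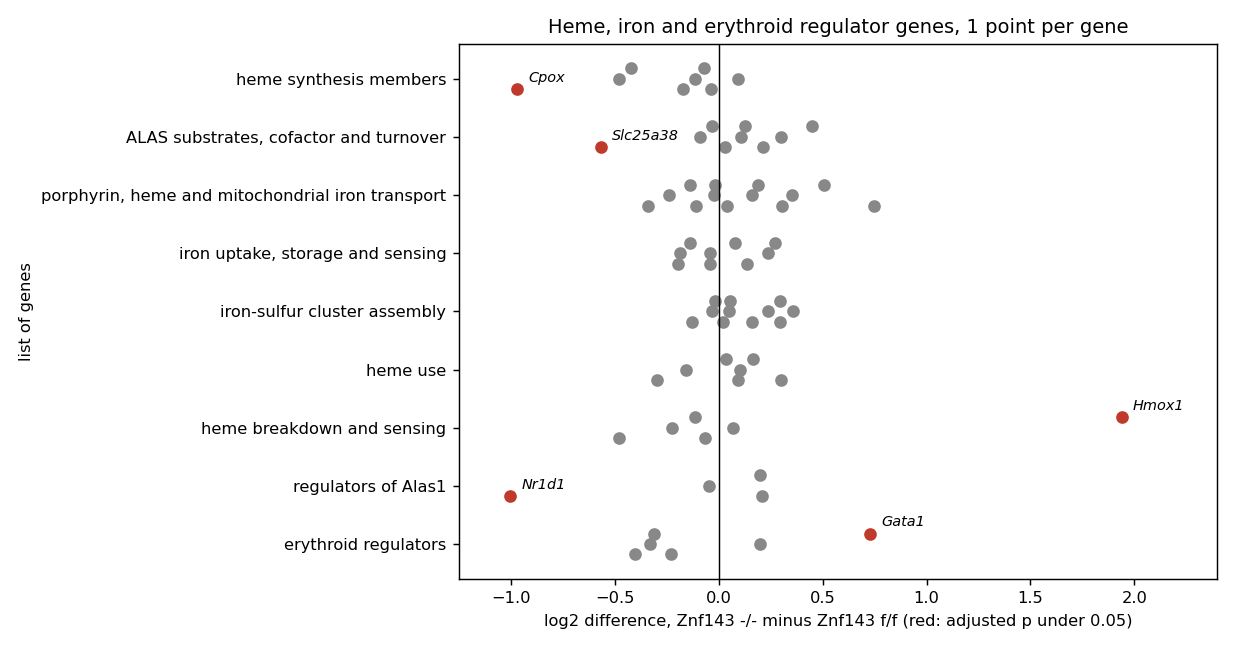
Difference between genotypes on the log2(scaled FPKM + 0.1) scale for the 8 heme synthesis genes and the genes around the pathway, with 1 point per gene tested and 1 row per list. Red points passed an adjusted p of 0.05: Cpox, Slc25a38 and Nr1d1 lie below 0, Hmox1 and Gata1 above, and the points of the transport, iron, iron-sulfur and heme use lists are all grey.

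The nearest tested genes before and after each member on its chromosome were compared with the same fit. Genes in between that were not tested were passed over. Of 16 such genes, 1 was called, a share close to the 5.98% of all genes tested. *St3gal6*, a sialyltransferase gene 146049 bases before *Cpox*, was higher in *Znf143 -/-*, at 2.13 and 4.01 scaled FPKM (log2 difference 0.86, adjusted p = 0.0392, limma). *Cldnd1*, 10274 bases after *Cpox*, was at 32.8 and 22.3 (log2 difference -0.57, adjusted p = 0.0772). *B4galt3*, which overlaps *Ppox*, had a log2 difference of 0.43 (adjusted p = 0.0987, limma), where that of *Ppox* was -0.17.

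The 3 genes whose profile over the 6 libraries was most like that of *Cpox*, among 12545 genes with a mean of at least 1 scaled FPKM, were *BC005624*, *Gna15* and *Utrn*, with Pearson r of 0.999 each. Their log2 differences were -0.31, -0.68 and -0.48. For *Alas1* they were *Fnbp1* (r = 0.998), *Pomgnt2* (0.997) and *Zfp809* (0.997). These values describe 6 libraries in 2 groups, and any gene with a steady difference between genotypes has a high r. *Alas2* was below the level asked for.

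**Figure D4:**
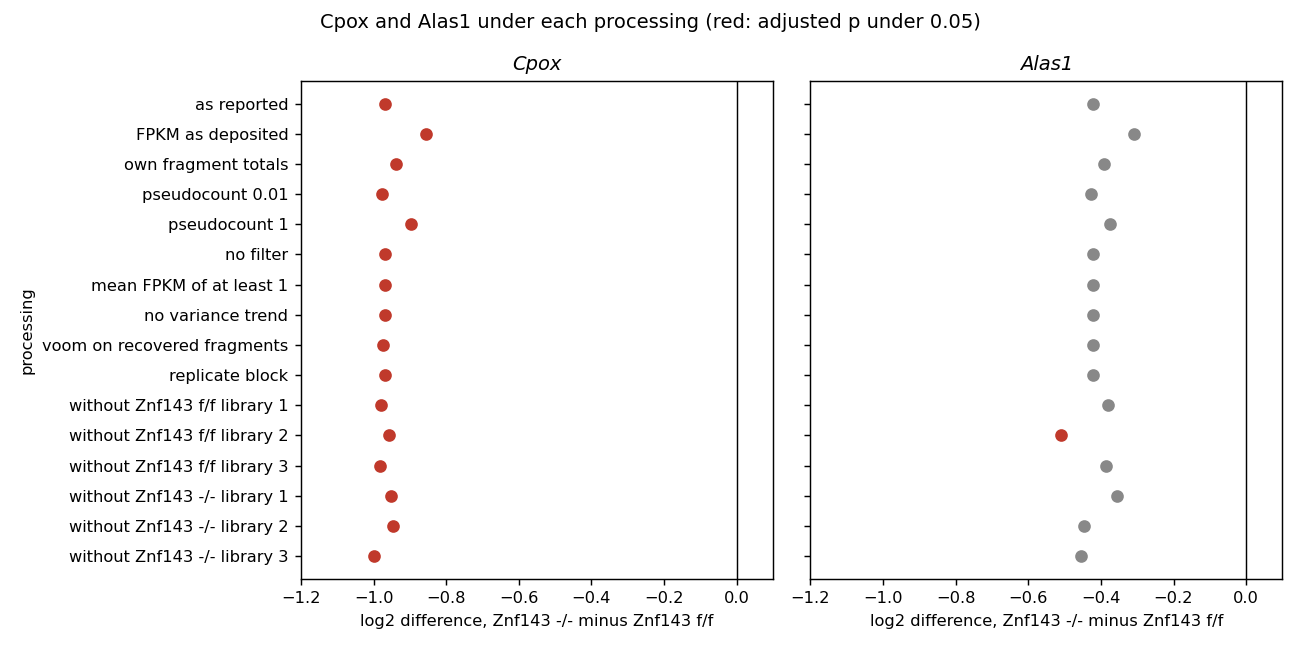
Difference between genotypes of Cpox and Alas1 on the log2 scale, as reported (top) and in each of 15 alternative settings. Red points passed an adjusted p of 0.05: all 16 points of Cpox, between -0.998 and -0.856, and 1 point of Alas1, without the second Znf143 f/f library (-0.51).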

How the data were processed

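RNA-seq libraries of HSLAM cells were prepared by the authors with SMART-Seq v4 and Nextera XT kits from RNA selected for integrity. Reads were trimmed (TrimGalore), aligned to GRCm38 (STAR), counted per gene (FeatureCounts) and compared (DESeq2) by the authors. The authors deposited 1 table with the FPKM of each library and the gene length. Its columns of the authors' own comparison (mean count, log2 fold change, test statistic, p-values) were not used. The 19 ChIP-seq and HiC samples of the series were not analysed here.

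Fragments were recovered from FPKM and length (99.986% of 138696 values within 0.05 of a whole number). The third *Znf143 -/-* library had been divided by the fragment total of the second, and held 1.20 times as many fragments. FPKM were therefore divided by median-of-ratios size factors. All genes whose mean FPKM reached 0.1 entered limma 3.58.1 (R 4.3.3, lmFit and eBayes with variance trend, no block), on the scale log2(FPKM + 0.1). P-values were adjusted by the Benjamini-Hochberg method, with a threshold of 0.05. A library's 3 fragments, taken as the smallest number told apart from 0, are 0.0516 to 0.0784 scaled FPKM for a gene of 1 kb. Such limits cover counting error only. The fit was tested on simulated data. Coordinates came from GENCODE M21 and promoters from RefSeq.

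The alternatives were FPKM as deposited, division by each library's own fragments, a pseudocount of 0.01 or 1, omission of the filter, a filter at a mean FPKM of 1, no variance trend, voom on the recovered fragments, the replicate number as a block, and each library left out. Members and gene lists were chosen with earlier results of these data known. Named are all members, *Zfp143*, and of each other list the genes called and the 2 most abundant ones where they bear on a result, and the 3 genes most like *Cpox* and *Alas1*. *Bach1*, *Trim10*, *Tal1*, *Zfpm1* and the neighbours were named after their values were seen. 1 further enzyme gene of the pathway is not reported here. The libraries of a genotype are biological replicates, but which littermates form pairs is not given in the sources used here.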

Additional observations from a re-analysis of the deposited data

How the results depend on the processing

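*Cpox* kept its direction and its call in all 15 alternative settings, and without each library in turn its log2 difference was -0.998 to -0.947. *Uros*, *Alas1* and *Alas2* kept a difference below 0 and *Fech* one above 0 in every setting run, 14 for *Alas2*, which is below a mean FPKM of 1. With FPKM as deposited, where the median of all genes is 0.11, the differences of *Alad* (0.043) and *Urod* (0.078) turned sign, and the median of the 8 genes was -0.029 against -0.14. Without the second *Znf143 f/f* library, *Urod* (0.014) and *Ppox* (0.021) turned sign (-0.084 to 0.014 and -0.32 to 0.021 over the libraries left out), and 2 of the 8 genes were called (*Cpox* and *Alas1*), against 1 without any other library. The median of the 8 genes was -0.21 to -0.11 without each library. The *Alas2* to *Alas1* ratio had log2 differences of -0.75 to 0.30, turning sign without the second *Znf143 f/f* (0.15) or the second *Znf143 -/-* library (0.30). The cause was not tested.

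Over the table, 1154 genes were called. FPKM as deposited gave 833 (529 higher and 304 lower, against 578 and 576). Leaving out each library gave 226 to 2290, with 2290 without the second *Znf143 f/f* and 2110 without the first *Znf143 -/-* library. With the replicate number as a block, 191 genes were called. Deviations of same-numbered libraries correlated at -0.0953, -0.0884 and 0.0356, and those of differently numbered libraries at -0.0442 to 0.105. As no known pair shows what correlation littermates give, these values cannot tell whether same-numbered libraries are littermates. Under the block *Cpox* stayed called, and *Slc25a38* (adjusted p = 0.116, limma), *Gata1* (0.0694) and *Nr1d1* (0.128) were not. *Alas2* has the fewest fragments of the 8 genes, 12 to 67 per library, with a counting error of up to 28.9%, less than its spread between libraries.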
